A study of Mus musculus with 8 samples.

Results

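Collagen crosslinking and hydroxylation enzymes were compared between 4 arrays of corneas from mice that overexpress TGF-beta (TGFB) and 4 arrays of corneas from their wildtype littermates. The list names 10 genes: the lysyl oxidases Lox, Loxl1 and Loxl2, the lysyl hydroxylases Plod1, Plod2 and Plod3, the prolyl 4-hydroxylase subunits P4ha1, P4ha2 and P4ha3, and the collagen chaperone Serpinh1. Members are the probe sets that the array annotation assigns to 1 of these symbols only. This gave 16 probe sets of 9 genes, among 45037 probe sets tested and 18193 genes named in the series. Loxl2 had no such probe set, since both of its probe sets are also assigned to Gm21451. The labels give total RNA extracted with TRizol and do not state the TGF-beta isoform, the promoter or tissue that drives it, the strain, the age, or whether an array holds 1 animal or a pool. The spread behind each p-value is thus that of arrays, and may be technical rather than between animals.

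Collagen chains are modified before they are secreted. In the endoplasmic reticulum (ER), prolyl 4-hydroxylases modify prolines so that the triple helix is stable at body temperature, lysyl hydroxylases modify lysines that later carry sugars and crosslinks, and Serpinh1, also called HSP47, binds the folded triple helix. Outside the cell, copper-dependent lysyl oxidases oxidise lysines and hydroxylysines, and the products react into crosslinks that hold collagen and elastin fibres together. The stiffness and the even fibril packing of the corneal stroma depend on such crosslinks, and TGF-beta is known as an inducer of several of these genes in cultured fibroblasts.

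The arrays differed among themselves in tissue content. The stromal and epithelial markers Kera and Krt12 were present on every array, with Kera signals of 2073 to 4154 in TGFB and 2538 to 8110 in wildtype corneas and Krt12 signals of 289 to 4551 in TGFB and 562 to 5766 in wildtype corneas. All 7 keratocyte markers had lower means in TGFB corneas, with summed signals of 16895 to 25113 against 21769 to 39739 in wildtype corneas. All 8 pigment cell markers were also lower, at summed signals of 3214 to 14879 against 14566 to 32187, and all 5 retina markers at 82.0 to 102 against 111 to 2320. The 7 cornified epidermis markers summed to 38191 and 45220 in TGFB 1 and TGFB 2 and to 24637 in wildtype 2, against 712 to 1551 on the other 5 arrays. The 3 measured bone markers summed to 1072, 35.7, 102 and 178 on TGFB 1 to 4, against 19.4 to 72.6 in wildtype corneas. Of 7 cartilage markers, 6 were higher and 1 lower, with sums of 755 to 1936 in TGFB and 790 to 1526 in wildtype corneas. The part of bone and cartilage tissue in the values of the members was not tested. The 3'/5' signal ratio of Gapdh, a measure of RNA decay, was 2.88 to 3.55 in TGFB arrays and 2.19 to 6.41 in wildtype arrays, where wildtype 4 was highest. No marker of these lists was at a signal of 0 on any array, but this does not show that each was present. No detection call was used, and the retina marker Rpe65 read only 0.569 on TGFB 4. Of these markers, 0 passed limma at an adjusted p under 0.05. Over all genes, 47.4% had higher means in TGFB corneas. At an unadjusted p under 0.05, 2 of 7 keratocyte, 6 of 8 pigment and 2 of 5 retina markers were lower, as were 4.54% of all genes. Of the 3 bone markers, 1 was higher at that threshold, as were 2.69% of all genes. Of 6 corneal epithelium markers, 2 had higher and 4 lower means, with Krt14 higher and Tkt lower at that threshold. Krt14 read 4419 to 5045 in TGFB and 1274 to 3408 in wildtype corneas, and Tkt 1890 to 2532 and 2554 to 5914. The groups did not overlap for these 2 genes, as for 3.94% of all genes. In bulk tissue, fewer cells of a type and less RNA per cell cannot be told apart.

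No enzyme of the group passed the test of a difference between TGFB and wildtype corneas. Of the 16 probe sets, 0 passed limma at an adjusted p under 0.05, where 0.00% of all probe sets passed, and 0 passed at an unadjusted p under 0.05, where 5.86% did. The groups of arrays overlapped for each of the 16 probe sets, and 3.28% of all probe sets had groups that did not overlap. Among so few probe sets, counts of 0 are close to these shares and do not set the members apart. The adjusted p ran from 0.879 to 0.990 over the 16, and 0 passed as well without wildtype 4 or without the 3 arrays with cornified transcripts. Values were compared as log2(signal + 16), and differences are TGFB minus wildtype. With 1 probe set per gene, the one of highest mean, 5 genes were higher and 4 lower, with a median difference of 0.047, against -0.014 over all 18193 genes. The size of the difference had a median of 0.19 over the 9 genes and of 0.16 over all genes. The 95% intervals of 10 of the 13 probe sets with a signal of at least 16 on every array lay between -1 and 1 on the log2(signal + 16) scale. The exceptions were 1 probe set each of Loxl1, Plod2 and Serpinh1. That scale understates the change of dim probe sets, so no bound on signal follows for the other 3, which are 1 probe set each of Lox, Plod1 and P4ha1.

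**Figure D1:**
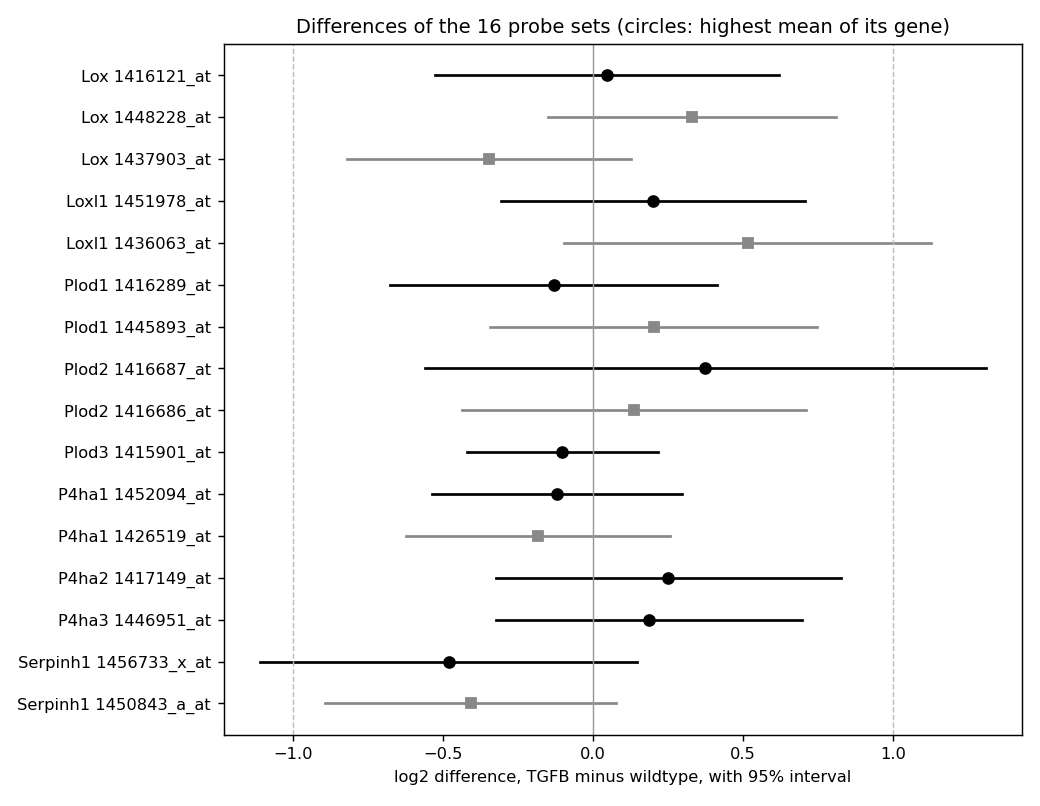
Log2 difference (TGFB minus wildtype, x axis) of each of the 16 probe sets with its 95% interval from limma. Circles mark the probe set with the highest mean of each gene, squares the other probe sets, and dashed lines stand at -1 and 1. Each interval spans 0, and those of Loxl1 1436063_at, Plod2 1416687_at and Serpinh1 1456733_x_at reach past 1 or -1.

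Lox, the lysyl oxidase that gives the family its name, had signals of 4289, 2280, 3197 and 3480 in TGFB corneas and of 2653, 3798, 2256 and 4201 in wildtype corneas (probe set 1416121_at). TGFB 1 and wildtype 4 were the highest and TGFB 2 and wildtype 3 the lowest, so both groups spanned nearly the same range. The log2 values averaged 11.66 ± 0.38 in TGFB and 11.62 ± 0.42 in wildtype corneas (SD, n = 4 each), a difference of 0.047 with a 95% interval of -0.53 to 0.62 (limma adjusted p = 0.990). A second Lox probe set, 1448228_at, read 505, 253, 431 and 346 in TGFB and 310, 335, 246 and 288 in wildtype corneas, a difference of 0.33 (SE 0.21, adjusted p = 0.902). Here 3 TGFB arrays lay above the highest wildtype array, while TGFB 2 lay among the wildtype arrays. The difference was 0.19 without TGFB 1 and 0.51 without TGFB 2. The third, 1437903_at, was below a signal of 16 on 7 of 8 arrays and gave -0.35 (SE 0.21). The 3 probe sets thus differed in sign, and the first turned negative without TGFB 1 (-0.089), wildtype 1 (-0.032) or wildtype 3 (-0.11).

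Loxl1, a lysyl oxidase best known for elastic fibre upkeep, had signals of 1831, 1437, 1982 and 2282 in TGFB corneas and of 1730, 1475, 1172 and 2268 in wildtype corneas (1451978_at). The difference was 0.20 with an interval of -0.31 to 0.71 (SE 0.22, adjusted p = 0.931). Its other probe set, 1436063_at, read 92.0, 67.4, 170 and 134 in TGFB and 86.3, 70.2, 47.6 and 91.2 in wildtype corneas. That is a difference of 0.52 with an interval of -0.097 to 1.13 (adjusted p = 0.879, unadjusted p = 0.0895). All TGFB arrays but TGFB 2 lay above all wildtype arrays on this probe set. Both Loxl1 probe sets were higher in TGFB corneas in the main comparison and in each alternative tried, but neither passed in any of them. Their size rested on single arrays, at 0.049 without wildtype 3 and 0.36 without wildtype 4 for 1451978_at, and at 0.33 without TGFB 3 and 0.71 without TGFB 2 for 1436063_at.

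The probe sets that Loxl2 shares with Gm21451 were not counted as members and cannot be ascribed to either gene. One (1431004_at) read 1498, 583, 1187 and 1428 in TGFB and 1282, 995, 762 and 1507 in wildtype corneas, a difference of 0.0048 (SE 0.32). The other gave 0.13 (SE 0.16).

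The lysyl hydroxylases did not pass either. Plod2, the enzyme that hydroxylates the telopeptide lysines from which pyridinoline crosslinks form, varied most among the 9 genes. Its signals were 189, 74.4, 354 and 220 in TGFB and 82.7, 144, 138 and 219 in wildtype corneas (1416687_at). TGFB 3 was the highest array and TGFB 2 the lowest, so the extremes of all 8 arrays lay within the TGFB group. The log2 values averaged 7.65 ± 0.85 in TGFB and 7.27 ± 0.51 in wildtype corneas, a difference of 0.37 with an interval of -0.56 to 1.31 (adjusted p = 0.931). It was 0.080 without TGFB 3 and 0.76 without TGFB 2. Its second probe set, 1416686_at, gave 0.14 (SE 0.25), and -0.019 without wildtype 1.

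Plod1, which hydroxylates lysines of the collagen helix, read 308, 225, 229 and 336 in TGFB and 352, 230, 220 and 435 in wildtype corneas (1416289_at). In each group 2 arrays were near 225 and the rest above 300, and the difference was -0.13 (SE 0.24, adjusted p = 0.961), but 0.044 without wildtype 4. The dim second probe set, below 16 on 4 arrays, gave 0.20 (SE 0.24), and -0.021 without wildtype 1. Plod3, which also adds sugars to hydroxylysine, was the steadiest of the 9 genes. It read 276, 358, 334 and 312 in TGFB and 376, 292, 356 and 353 in wildtype corneas, with a highest array 1.36 times the lowest. Its difference was -0.10 with the narrowest interval of the 16 probe sets, -0.42 to 0.22.

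**Figure D2:**
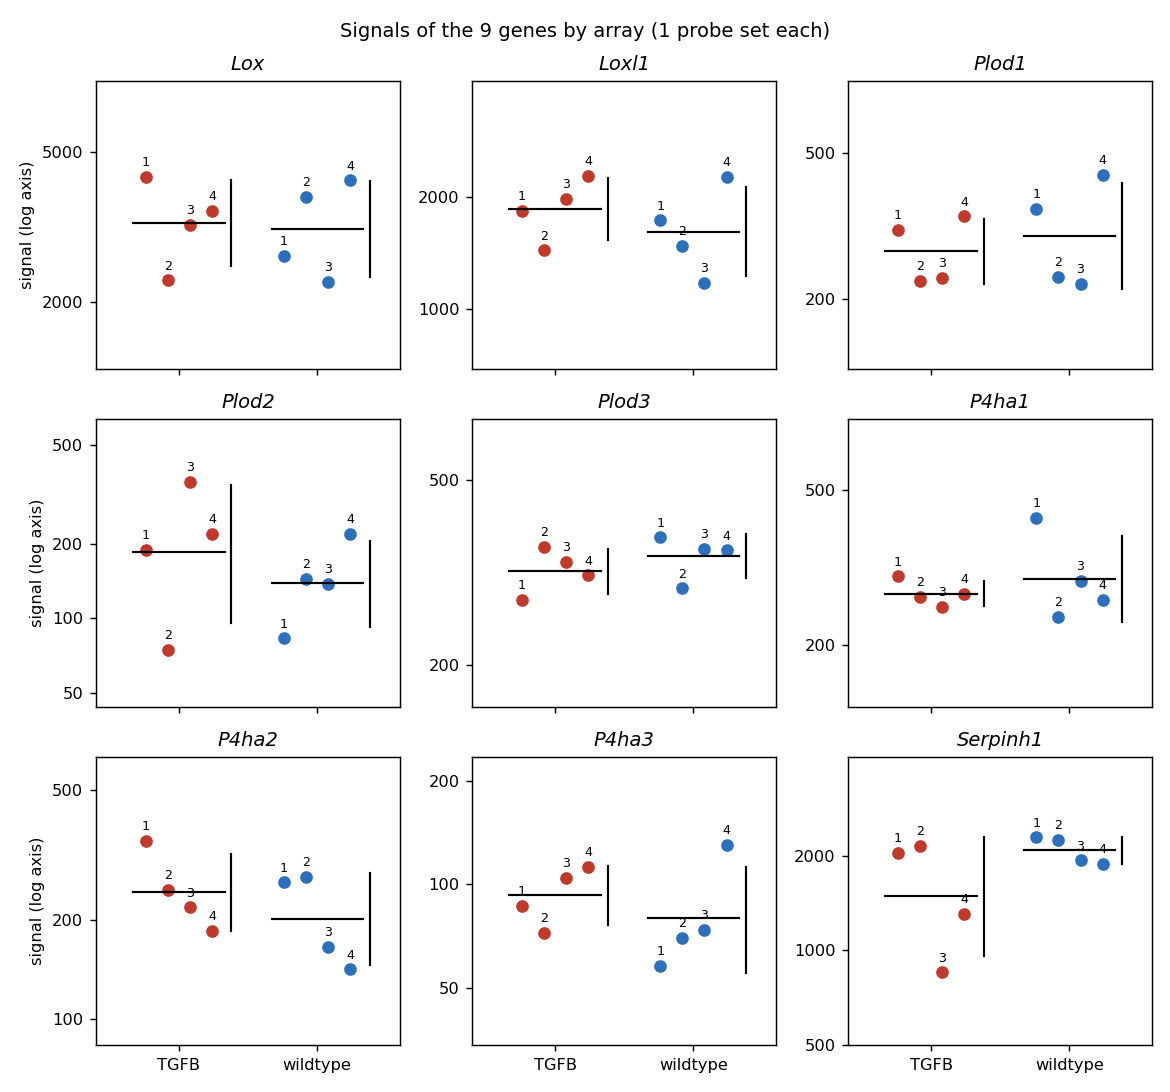
Signal of each of the 9 genes (y axis, log scale, its own range per panel) on the 4 TGFB arrays and the 4 wildtype arrays, with the probe set of highest mean per gene and array numbers beside the points. Horizontal lines show the mean and vertical bars the SD of the log2 values, drawn back on the signal scale. The groups overlap in every panel, and Plod3 has the smallest range.

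The prolyl 4-hydroxylase alpha subunits carry the catalytic site and differ in tissue use, with P4ha1 the main form in most cells. P4ha1 read 300, 266, 250 and 270 in TGFB corneas and 423, 236, 293 and 261 in wildtype corneas (1452094_at). Wildtype 1 stood above the other arrays, and the difference was -0.12 with an interval of -0.54 to 0.30 (SE 0.18, adjusted p = 0.952). Without wildtype 1 it was 0.045. The dim second probe set gave -0.18 (SE 0.20). P4ha2 read 350, 248, 219 and 185 in TGFB and 261, 271, 165 and 141 in wildtype corneas (1417149_at). Its difference was 0.25 (SE 0.25, adjusted p = 0.927), with TGFB 1 highest and wildtype 4 lowest, and it was 0.088 without TGFB 1 and 0.38 without wildtype 2. P4ha3 read 86.4, 72.3, 104 and 112 in TGFB and 58.0, 69.9, 73.7 and 130 in wildtype corneas (1446951_at). Wildtype 4 was the highest array of the 8 while the other wildtype arrays were low, and the difference was 0.19 (SE 0.23, adjusted p = 0.938). It was 0.064 without wildtype 1 and 0.39 without wildtype 4.

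Serpinh1, the collagen chaperone, gave the lowest difference of the 9 genes, with both probe sets alike. The signals were 2034, 2142, 849 and 1305 in TGFB corneas and 2286, 2244, 1932 and 1878 in wildtype corneas (1456733_x_at). TGFB 3 and TGFB 4 lay below all wildtype arrays, whereas TGFB 1 and TGFB 2 lay among them. The log2 values averaged 10.55 ± 0.62 in TGFB and 11.03 ± 0.14 in wildtype corneas, a difference of -0.48 with an interval of -1.11 to 0.15 (limma adjusted p = 0.892, unadjusted p = 0.118). The other probe set, 1450843_a_at, read 683, 909, 452 and 647 in TGFB and 966, 1005, 817 and 727 in wildtype corneas. Its difference was -0.41 (SE 0.22, adjusted p = 0.880). Here TGFB 1, TGFB 3 and TGFB 4 lay below all wildtype arrays and TGFB 2 among them. TGFB 1 and TGFB 2, the higher TGFB arrays on both probe sets, are also those with cornified epidermis transcripts. The 7 lens markers summed to signals of 60.8 on TGFB 1, 91.2 on TGFB 2 and 143 on wildtype 2, against 871 to 27181 on the other 5 arrays, and pigment markers were lowest on TGFB 1 and TGFB 2, at 3214 and 6487. The part of lens and pigment tissue in the Serpinh1 values was not tested. For 1456733_x_at, with the cornified epidermis score as a covariate the difference was -0.68 (adjusted p = 0.748), and without TGFB 1, TGFB 2 and wildtype 2 it was -0.93 (adjusted p = 0.987). Without TGFB 3 it was -0.22, and -0.23 for 1450843_a_at.

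Leaving out the same 3 arrays moved other members too. Plod2 then had a difference of 0.95 and the dimmer Loxl1 probe set one of 0.91, both with a limma adjusted p of 0.987. Without TGFB 2 alone these differences were already 0.76 and 0.71. Leaving out all 3 leaves 2 TGFB and 3 wildtype arrays. The part of the cornified tissue in these values was not tested beyond that setting and the covariate.

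The 9 genes did not rise or fall together from array to array. Centred on each gene's mean, the median over the genes was 0.11, -0.21, 0.0087 and 0.13 on TGFB 1 to 4 and 0.18, -0.17, -0.19 and 0.39 on wildtype 1 to 4. Wildtype 4 was above the mean for 7 of 9 genes, led by Plod1 (0.59), P4ha3 (0.52) and Plod2 (0.42), but was 0.60 below it for P4ha2. Wildtype 4 also had the highest Kera signal. Wildtype 3 was the lowest array for 3 of the genes, Lox, Loxl1 and Plod1. TGFB 2 was among the lowest pair of arrays for 4 genes, and TGFB 3 ranged from 1.07 for Plod2 to -1.03 for Serpinh1. For each gene the range of log2 values within the TGFB group exceeded the difference between the group means.

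**Figure D3:**
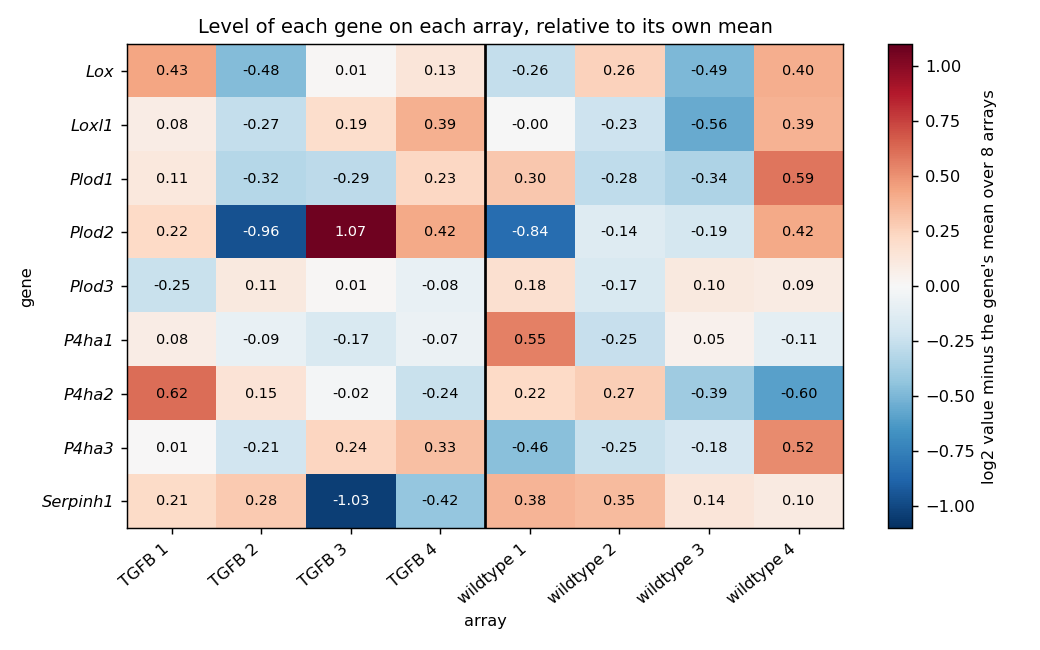
Log2 value of each of the 9 genes (rows) on each array (columns, TGFB left of the line, wildtype right), minus the gene's mean over the 8 arrays. Red is above and blue below the mean. High and low cells occur on both sides of the line, with 1.07 for Plod2 and -1.03 for Serpinh1 on TGFB 3 as extremes.

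Genes with the most similar profile over the 8 arrays were sought by the mean absolute difference of centred log2 values, among 8191 other genes with a mean of at least 7 (8192 for P4ha3, whose own mean lies below 7). The arrays share tissue content and RNA quality, and the nearest of so many genes are close by selection. For Loxl1 these were Wwtr1, which encodes the mechanosensitive coactivator TAZ (0.054, where Loxl1 itself deviated from its mean by 0.26 on average), Tti2 (0.081) and Fndc3b (0.083). For Serpinh1, which deviated by 0.36, they were Itih5 (0.10), Ap3b1 (0.14) and the stromal gene Aebp1 (0.14). Lox, which deviated by 0.31, was nearest to Wdr83 (0.12), the cadherin Cdh13 (0.12) and the sarcoglycan Sgcb (0.13). Plod2, at 0.53, was nearest to 6330403K07Rik (0.17), Dclk1 (0.19) and Pwwp3b (0.21). Plod1 (0.31) was nearest to Kdelr3, a receptor that returns ER proteins (0.095), and Plod3 (0.12) to Klf7 (0.062). P4ha1 (0.17) was nearest to Lmbrd1 (0.066), P4ha2 (0.31) to Cavin1 (0.098) and P4ha3 (0.27) to Lpin2 (0.059).

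Other genes of the collagen pathway did not pass the test either, and each list is given by its counts. Of 17 measured folding and modification partners in the ER, 3 were higher and 14 lower, with a median difference of -0.15, whereas 47.4% of all 18193 genes were higher. At an unadjusted p under 0.05, 2 of the 17 were lower, as were 4.54% of all genes. They were Fkbp14 (-0.39, SE 0.17) and Fkbp7 (-0.54, SE 0.24), both ER prolyl isomerases. Colgalt2, which puts galactose on hydroxylysine, had a difference of -0.42 (SE 0.25), and P3h4, a partner of Plod1 in a lysyl hydroxylation complex, one of 0.25 (SE 0.19). Limma gave these 4 genes adjusted p-values of 0.840 to 0.914.

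Of the 4 crosslinking genes outside the group, Loxl3 had a difference of -0.22 (SE 0.24), Loxl4, below a signal of 16 on 6 of 8 arrays, 0.14 (SE 0.25), the transglutaminase Tgm2 -0.23 (SE 0.21) and Pxdn, which crosslinks collagen IV, 0.048 (SE 0.18), which was -0.0074 without TGFB 4 and -0.049 without wildtype 1. Among 6 propeptide processing genes, 3 were higher and 3 lower, with a median of 0.049 that fell just below 0 without wildtype 2 (-0.0043) or wildtype 3 (-0.0038). The higher 3 were Pcolce2 (0.55, SE 0.54), Adamts3 (0.17, SE 0.31) and Bmp1 (0.12, SE 0.22). Among the lower 3, Tll1 and Tll2 were below a signal of 16 on all 8 arrays. Pcolce, which enhances removal of the procollagen C-propeptide, read 3289, 2844, 3276 and 4241 in TGFB and 5836, 3662, 4673 and 5058 in wildtype corneas. Only TGFB 4 overlapped the wildtype arrays, and the difference was -0.49 (SE 0.19, adjusted p = 0.837). Of 5 genes for ascorbate and copper supply, 1 was higher and 4 lower (median -0.073). The ascorbate transporter Slc23a1 (-0.52, SE 0.19, limma adjusted p = 0.837) was dim, with TGFB signals of 3.74 to 15.4 and wildtype signals of 16.6 to 29.7. Its groups did not overlap, as for 3.94% of all genes, but all 4 TGFB arrays lay below a signal of 16, close to background.

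The substrates of these enzymes showed no shift past the threshold. Of 11 fibrillar collagens, 4 were higher and 7 lower, with a median of -0.061 and the smallest unadjusted p at Col24a1 (-0.38, SE 0.23, adjusted p = 0.896). Without wildtype 4 that median was 0.10. All 7 measured elastic and matrix partners of the lysyl oxidases were higher, with a median of 0.26 but 0 of 7 at an unadjusted p under 0.05. The smallest unadjusted p were those of Thbs1 (0.78, SE 0.39), Fn1 (0.32, SE 0.33), Fbln5 (0.26, SE 0.32) and Fbn2 (0.24, SE 0.30), with adjusted p between 0.868 and 0.940, and Fbn2 was at -0.023 without wildtype 1. Of 13 TGF-beta target genes, 10 were higher and 3 lower (median 0.25). Over all genes, 47.4% were higher. Tenascin C (Tnc) alone reached an unadjusted p under 0.05 (1.28, SE 0.40, limma adjusted p = 0.837), and 2.69% of all genes were higher at that threshold. Fn1 and Postn are in this list and in that of the elastic and matrix partners, so the counts of these lists are not independent.

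Several of the enzymes, P4ha1, P4ha2, Plod2 and Lox among them, are known targets of the hypoxia-inducible factor HIF-1, so 14 other hypoxia-inducible genes were set beside them. Of these 10 were higher and 4 lower, with a median of 0.12, and 4 of 14 were higher at an unadjusted p under 0.05, as were 2.69% of all genes. The glycolytic enzyme Hk2 read 614, 599, 344 and 311 in TGFB and 267, 264, 224 and 131 in wildtype corneas, so the groups did not overlap (1.01, SE 0.29), as for 3.94% of all genes. The same was true of Pdk1, which restrains pyruvate oxidation, at 474, 534, 552 and 572 in TGFB and 407, 363, 356 and 442 in wildtype corneas (0.43, SE 0.13). The secreted peptide gene Adm had a difference of 1.08 (SE 0.31) and the mitophagy gene Bnip3 one of 0.60 (SE 0.22). The adjusted p of these 4 genes was 0.834 to 0.837, so none passed. Over all 22 alternatives the 4 kept a positive difference. They were picked by smallest p in these same data, and some alternatives leave a difference unchanged, so the kept sign adds no support. The 4 lower genes of the list were Slc2a1 (-0.66, SE 0.40), Vegfa (-0.25, SE 0.20), Ndrg1 (-0.21, SE 0.29) and Aldoa (-0.028, SE 0.17). Whether hypoxia had a part in these values was not tested.

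**Figure D4:**
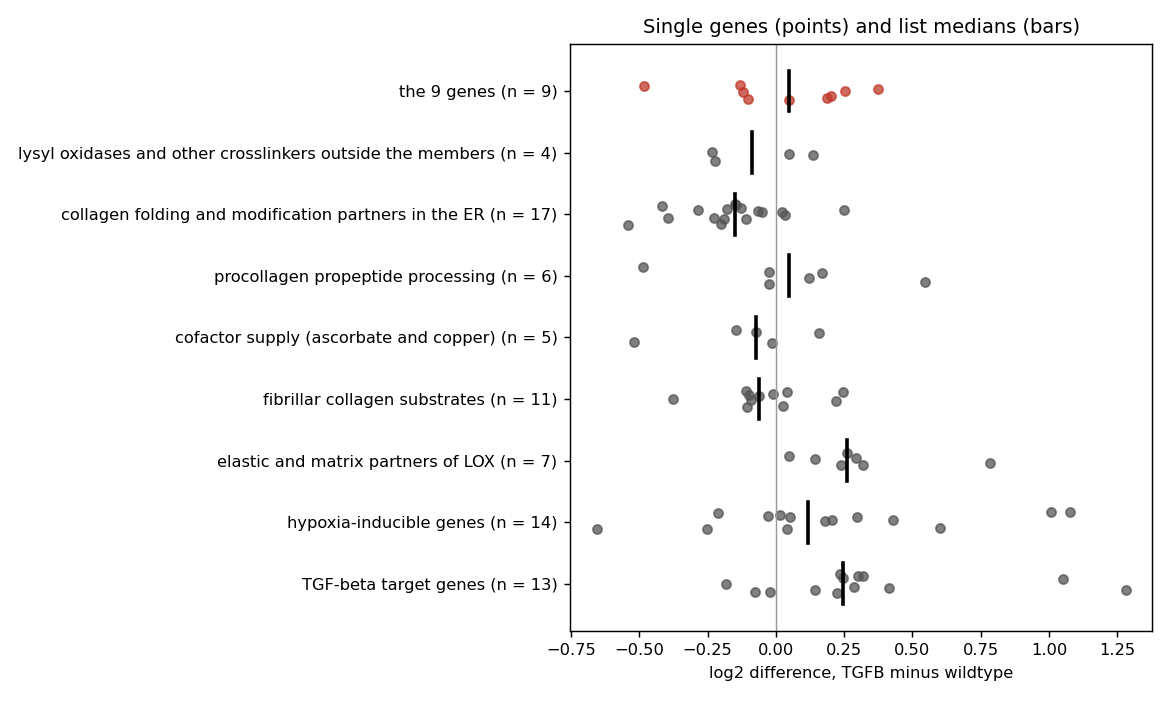
Log2 differences (TGFB minus wildtype, x axis) of the 9 genes (red) and of the genes in 8 lists (grey), 1 point per gene and list, with a bar at each median. The lists cover the collagen pathway, hypoxia-inducible genes and TGF-beta target genes. Medians run from -0.15 for ER folding and modification partners to 0.26 for elastic and matrix partners of the lysyl oxidases, and that of the 9 genes is 0.047.

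Promoter sequence was read for the 6 members with an entry in the RefSeq promoter table of GRCm38.p6: Plod1, Plod3, P4ha1, P4ha2, P4ha3 and Serpinh1. The 250 bases before the start given there, which for P4ha1 and P4ha3 lies inside the annotated gene, were searched on both strands for ACGTG, the core of the HIF-1 site, and CAGAC, the SMAD box through which TGF-beta signals act. ACGTG occurred in 4 of the 6, in Plod3, P4ha1, P4ha2 and Serpinh1, and in 16.6% of 32851 promoter windows of this length. CAGAC occurred in 2 of the 6, Plod1 and Serpinh1, and in 42.2% of all windows, and no match of one overlapped a match of the other. P4ha2 is shown as a hypoxia target with the HIF-1 core, and Serpinh1 as the member with the lowest difference and both motifs. Capitals mark each match of ACGTG or CAGAC on either strand.
P4ha2, chr11:54100674-54100923, plus strand: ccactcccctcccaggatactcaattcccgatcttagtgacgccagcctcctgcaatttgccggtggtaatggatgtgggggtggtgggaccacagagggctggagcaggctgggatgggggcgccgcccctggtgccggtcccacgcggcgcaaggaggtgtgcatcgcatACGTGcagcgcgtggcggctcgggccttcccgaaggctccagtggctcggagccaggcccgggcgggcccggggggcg
Serpinh1, chr7:99353240-99353489, minus strand: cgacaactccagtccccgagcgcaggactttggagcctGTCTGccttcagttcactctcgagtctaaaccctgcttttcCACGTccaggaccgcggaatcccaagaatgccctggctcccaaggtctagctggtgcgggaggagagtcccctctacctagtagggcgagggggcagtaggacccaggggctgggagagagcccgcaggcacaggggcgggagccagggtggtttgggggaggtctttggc
The match in P4ha2 begins 78 bases before the start. In Serpinh1 the SMAD box begins 212 and the HIF-1 core 171 bases before the start. A match is a description of these letters, and binding was not measured.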

How the data were processed

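Mouse cornea RNA was hybridised to 8 one-colour arrays with 45101 probe sets. The deposited values are linear intensities per probe set. The tool that made them is not given in the sources used here. Each array has a 2% trimmed mean of 150 in the values themselves, so no further scaling was applied, and no array pair was identical. Tests excluded the 64 control probe sets. An annotation of 2016 gave 1 symbol to 34945 probe sets, several to 932 and none to 9160. Of the first, 34741 were updated by Entrez ID through a RefSeq table of GRCm38.p6. The number of arrays limits the precision.

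Arrays were grouped by their labels and numbered 1 to 4 in record order, which pairs no arrays. Values were log2(signal + 16), and a limma model (version 3.58.1, R 4.3.3; lmFit, then eBayes with no variance trend, two-sided, 9.22 degrees of freedom in total) was fitted across all 45037 probe sets, with Benjamini-Hochberg adjustment over them and a threshold of 0.05. The step was tested on simulated data. Intervals of 95% use the moderated SE. A gene is represented by its probe set of highest mean over the 8 arrays.

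The members, lists and alternatives were chosen with earlier results of these data known. The rule names all 10 listed genes, up to 4 genes of smallest p per pathway list, and the 3 nearest profiles per member, of which the first alone is given for 5 members. Kera, Krt12, Krt14, Tkt, Rpe65 and Gapdh are given as marker and quality checks. The lower genes of the hypoxia list, and Tll1 and Tll2, are named to show both directions. Of the listed genes, Fkbp10, Adamts2, Adamts14, Fbn1, Efemp2, Eno1 and some others were not analysed here. Summaries and figures were made with pandas 2.3.3 and matplotlib 3.10.9.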

Additional observations from a re-analysis of the deposited data

Results flagged for a closer look

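One array stood apart from the rest of its group among the 16 probe sets of the 9 genes. The dim Lox probe set 1437903_at read 3.38 on wildtype 4, while the remaining wildtype arrays read 15.2 to 17.8. The TGFB arrays read 2.65 to 11.9 on it, so without wildtype 4 the groups would not overlap, and its difference there was -0.53 (limma adjusted p = 0.304). Chance gives such a gap in about 1 of 20 groups, and 32 groups were looked at.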

How the results depend on the processing

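Results were recomputed in 22 alternatives: quantile normalization, offsets of 1 and 32, centring on the median, removal of probe sets up to the 40th percentile of means (14 of the 16 probe sets passed it), 1 probe set or the mean of all probe sets per gene, a variance trend, robust eBayes, array weights, 2 covariates, 2 sets of arrays left out and each of the 8 arrays left out. In each of them 0 of the members it covered passed (9 genes where genes had 1 value), and the smallest adjusted p of any of them was 0.304. Over all probe sets 0 passed, and over single arrays left out from 0 to 2 passed, the 2 being without wildtype 4. Without wildtype 1 and wildtype 4 there were also 2. The first pair are both probe sets of the carboxylesterase gene Ces1d (-3.25 and -2.34), and the second pair 1 of these (-3.29) and the retinal opsin gene Rgr (-3.22), chosen after their values were seen. Both offsets and both normalizations reversed 0 of the differences. The filter, 1 probe set per gene and both variance models leave each difference they cover unchanged (14 with the filter, 9 with 1 probe set per gene). They change only its SE or adjusted p, so they could not reverse a sign. Over the 16 probe sets, 7 kept their sign in every alternative they entered, those of Loxl1, P4ha2 and Serpinh1, Plod2 1416687_at and Lox 1448228_at, and 9 did not.

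With the mean of the pigment markers as covariate, differences reversed to -0.49 (Lox 1416121_at), 0.058 (Lox 1437903_at), -0.33 (Plod1 1445893_at), -0.057 (Plod2 1416686_at), 0.058 (Plod3), 0.13 (P4ha1 1452094_at), 0.25 (P4ha1 1426519_at) and -0.11 (P4ha3). The same covariate gave -0.040 for Loxl4, -0.24 for Pxdn, -0.18 for Fn1, -0.30 for Fbn2 and 0.12 for the median of the cofactor genes. All 8 pigment markers had lower means in TGFB corneas, so covariate and group cannot be told apart cleanly. The Plod1 probe set 1416289_at turned positive with the mean of all probe sets (0.036), array weights (0.056) and without wildtype 1 and wildtype 4 (0.25). In the last setting P4ha1 was at 0.042 and Loxl3 at 0.14. The median of fibrillar collagens was 0.11 with the mean of all probe sets, 0.025 with array weights and 0.046 without wildtype 1 and wildtype 4. Loxl4 was at -0.32 without the 3 arrays with cornified transcripts. Over single arrays left out, Lox ran from -0.11 to 0.21, Plod1 from -0.27 to 0.044 and, for its dim probe set, from -0.021 to 0.40, Plod2 1416686_at from -0.019 to 0.31 and P4ha1 from -0.22 to 0.045. Pxdn ran from -0.049 to 0.18, Fbn2 from -0.023 to 0.51, and the medians of propeptide processing genes from -0.0043 to 0.15 and of fibrillar collagens from -0.17 to 0.10. The causes of these reversals were not tested. No paired analysis was possible because the array numbers of the groups mark no shared animal or litter. Probe sets near a signal of 16 lie close to background, and their change is understated.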
